A study of Mus musculus with 12 samples.

Results

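Described here are 10 genes of the major histocompatibility complex (MHC) class I pathway in CD11c-enriched lymph node cells of wildtype and APOE-KO mice. The genes were chosen by their role in the pathway, with earlier results of these data known. They are 4 heavy chains (H2-K1, H2-D1, H2-Q7 and H2-T23), the light chain (B2m), both subunits of the peptide transporter (Tap1 and Tap2), tapasin and its relative (Tapbp and Tapbpl), and the regulator Nlrc5. All 10 were found among the 24499 gene symbols of the count table, and 9 passed the low-count filter. The exception was H2-Q7, which is listed at 0 in every library.

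The wildtype group was C57BL6 mice and the other group was mice labelled APOE-KO, which lack apolipoprotein E. Both groups carried E0771-cOC tumours, derived from the mouse mammary carcinoma line E0771, and tumour-draining nodes were taken 9 days after injection. The nodes were digested, and cells bearing CD11c, the integrin encoded by Itgax, were enriched on beads. Each group had 6 libraries, made from the 3' end of the RNA. The allele, the age and sex of the mice and the number of mice per library are not stated in the labels, so the p-values rest on the spread between these libraries, which may be technical. The design asks how gene expression in these cells differs between the genotypes.

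Class I molecules present short peptides, mostly from the cell's own proteins, to CD8+ T cells. Proteasomes cut the peptides, the Tap1-Tap2 transporter carries them into the endoplasmic reticulum, and tapasin holds an empty heavy chain and its light chain at the transporter until a peptide binds. Interferons raise the expression of the pathway, in part through Nlrc5, which acts at class I promoters. Dendritic cells also load peptides from engulfed material onto class I, a process called cross-presentation.

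Library totals ran from 2381477 to 4898360 counts, and no difference in log2 totals between genotypes was detected (two-sided exact permutation p = 0.455). The ribosomal RNA gene Rn45s took 2.71 to 32.2% of a library. Wildtype library 1 had the smallest total and the highest Rn45s share, and wildtype library 3 the largest total and the lowest share. Apoe stood at 409 to 531 CPM (counts per 1000000 reads of the scaled library size) in wildtype against 2.75 to 10.7 CPM in APOE-KO. All 13 dendritic cell markers had reads in every library, and their summed level was 15516 to 24598 CPM in wildtype against 17567 to 21157 CPM in APOE-KO. Wildtype libraries 1 and 3 and APOE-KO library 5 stood apart in the principal components. For log2 fold changes of the members, values without all 3 are given where they differ by over 1.5 times or end a call. None are given for single genes of the pathway lists. These are bulk libraries, so fewer cells of a type and less RNA per cell cannot be told apart.

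The promoters of the members were searched for the letters of elements through which the pathway is controlled. The stretches below cover the light chain and the classical heavy chains together with H2-Q7, the member with no read. RefSeq (GRCm38.p6) gave an entry for 7 members and none for Tap2, Tapbpl and Nlrc5. The 250 bases before each start were searched on both strands. The motifs were the interferon-stimulated response element in the forms GAAANNGAA and GAANNGAAA, which can overlap each other, the NF-kB site of enhancer A (GGGATTCCC), the X2 box (TGACGC) and the Y box (CCAAT). The form GAANNGAAA was added after the promoters had been read. Capitals mark the matches in the sequences, which read 5′ to 3′ along the gene. H2-K1 lies at chr17:34000349-34000467 on the minus strand, H2-D1 at chr17:35262914-35263055, H2-Q7 at chr17:35439013-35439153 and B2m at chr2:122147538-122147648, all of these on the plus strand.
H2-K1: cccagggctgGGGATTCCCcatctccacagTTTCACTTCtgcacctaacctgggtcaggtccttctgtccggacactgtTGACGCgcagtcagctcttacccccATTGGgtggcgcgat
H2-D1: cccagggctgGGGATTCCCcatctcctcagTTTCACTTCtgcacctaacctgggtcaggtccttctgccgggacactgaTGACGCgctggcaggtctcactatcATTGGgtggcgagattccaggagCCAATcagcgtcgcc
H2-Q7: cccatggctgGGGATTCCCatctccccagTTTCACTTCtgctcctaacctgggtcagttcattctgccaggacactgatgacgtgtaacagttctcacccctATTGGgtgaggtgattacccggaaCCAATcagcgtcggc
B2m: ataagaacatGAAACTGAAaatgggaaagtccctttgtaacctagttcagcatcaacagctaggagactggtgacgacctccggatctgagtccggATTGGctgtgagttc

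H2-K1, H2-D1 and H2-Q7 held the enhancer A site GGGATTCCC, which stands in 0.301% of all 32851 promoters of this length. The same 3 genes held GAANNGAAA, found in 6.31% of promoters, on the opposite strand. B2m and H2-T23 held the form GAAANNGAA, found in 7.13%. The X2 letters TGACGC stood in H2-K1 and H2-D1 and in 6.12% of all promoters. The Y box letters CCAAT stood, on either strand, in all 7 members with an entry, against 33.8% of promoters. Tap1 and Tapbp held none of these motifs except CCAAT, which began at -222 from the start in Tap1 and at -248 and -165 in Tapbp. These matches describe the letters and are not evidence of binding in these cells.

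B2m rose in APOE-KO, and no other member passed the test. Of the 10714 genes tested, 1.49% were called at the adjusted p threshold of 0.05 (quasi-likelihood test of edgeR) (1.08% higher in APOE-KO), and of the 9 tested members 1 was called. The log2 fold change was above 0 in 8 of the 9 and below 0 in Tapbpl, while 47.2% of all genes tested were above 0. Of the 8, Tap2 and H2-T23 changed sign when libraries were left out. The median over the 9 was 0.27, against -0.018 over all genes tested. These figures describe members that were chosen with earlier results of these data known. An unadjusted p under 0.05 was reached by 4 members (B2m, Nlrc5, Tapbp and H2-K1) and by 12.1% of all genes. In 1 member, B2m, every APOE-KO library lay above every wildtype library, as did 1.23% of all genes tested.

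**Figure D1:**
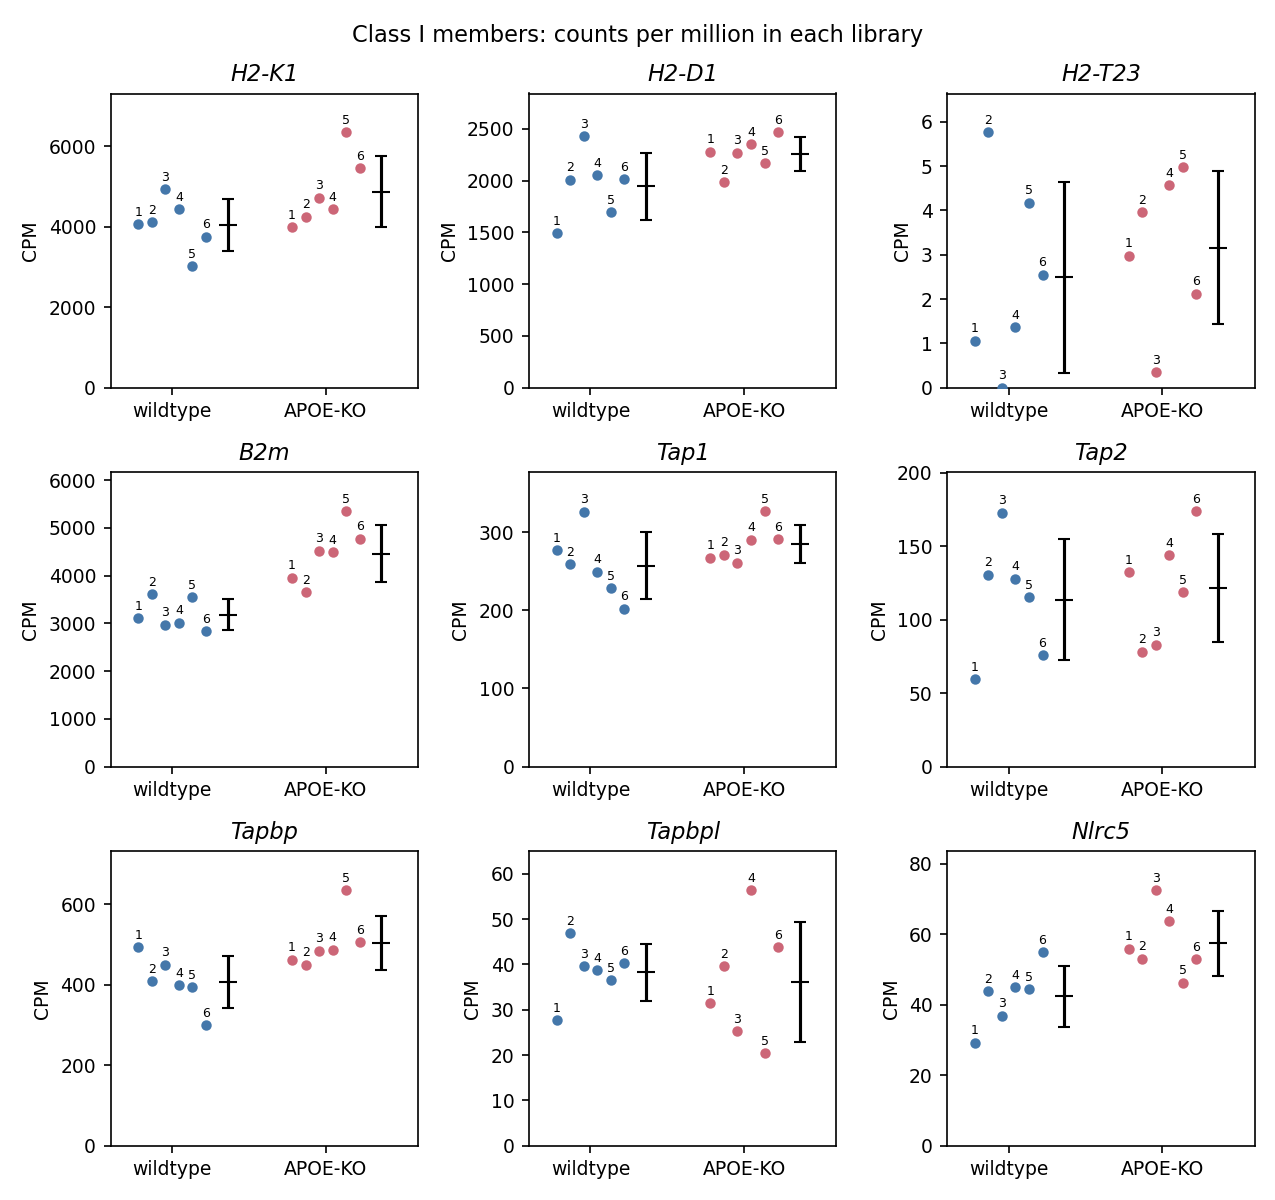
CPM (linear axes from 0) of the 9 tested members in each library, numbered by replicate within its genotype; the bar beside each group is its mean with the SD (n = 6). The groups separate for B2m and overlap for every other member.

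The light chain B2m pairs with every class I heavy chain and is needed for the complex to reach the cell surface. B2m (chromosome 2, 122147686 to 122153083, plus strand, GRCm38) had 2840 CPM in the lowest wildtype library, a median of 3065 and 3611 in the highest. In APOE-KO the lowest library had 3659 CPM, the median was 4508 and the highest was 5355 in library 5. The groups therefore do not overlap, although APOE-KO library 2 and wildtype library 2 lie close together. The means were 3185 ± 320 CPM in wildtype against 4460 ± 599 CPM for APOE-KO (SD, 6 libraries each), a 1.4-fold rise with a 95% interval of 1.20 to 1.63. The log2 fold change was 0.49 ± 0.11 (SE), and the adjusted p from edgeR was 0.0159. These values rest on 69546 reads over wildtype and 101862 over APOE-KO. Patl2, which overlaps the end of B2m on the opposite strand, held 4 reads in all 12 libraries.

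Without wildtype libraries 1 and 3 and APOE-KO library 5 together, the log2 fold change of B2m was 0.40 ± 0.11 (SE) and the edgeR adjusted p was 0.0509. With 1 library left out at a time, B2m passed in all 12 fits, with an adjusted p between 0.00995 and 0.0476. Markers of other cells moved with genotype as well. The 12 epithelial markers summed to 82.2 to 146 CPM in wildtype against 8.90 to 94.6 CPM in APOE-KO. Of the 6 of them tested, 1 was called lower, Cdh1, a cell adhesion gene, while 44 of all 10714 genes tested were called lower. With the mean log2 CPM of the 6 tested markers as a term, the log2 fold change of B2m was 0.45 ± 0.17 (SE) and its edgeR adjusted p 0.629. Without the term the SE was 0.11. The marker level itself nearly separated the genotypes, so this fit cannot tell it apart from genotype. The 8 markers of plasmacytoid dendritic cells, specialised producers of type I interferon, summed to 2991 to 6029 CPM in wildtype against 2423 to 3325 CPM in APOE-KO. Of the 8, 3 were called lower (Siglech, Klk1 and Cox6a2), against 44 of all 10714 genes. Bst2 (log2 fold change -0.12) and Irf8 (-0.32) were among those that did not pass. Of the 13 dendritic cell markers, all tested, 2 were called higher and none lower, against 1.08% called higher over all genes. The 2 were the chemokine receptor gene Ccr7 and the receptor gene Sirpa. Fscn1 (log2 fold change 0.56) did not pass, nor did Xcr1 (-0.31) and Clec9a (-0.27), which lay below 0. The part of plasmacytoid and dendritic cell markers in the B2m result was not tested. B cell markers summed to 704 to 961 CPM in wildtype against 590 to 759 CPM in APOE-KO, where Fcer2a fell. Macrophage markers summed to 986 to 1252 CPM in wildtype and to 906 to 1186 CPM in APOE-KO, but single genes moved in opposite directions. Cd5l rose from a mean of 17.9 to 89.8 CPM (log2 fold change 2.34) and C1qb from 76.9 to 116 CPM (0.60), while Marco fell from 243 to 83.2 CPM (-1.54). NK cell markers summed to 76.0 to 266 CPM in wildtype against 35.1 to 170 CPM in APOE-KO. Endothelial markers summed to 116 to 212 CPM in wildtype against 107 to 148 CPM in APOE-KO. None of the tested NK cell, endothelial, T cell, neutrophil or stromal markers was called. The part of these B cell, macrophage, NK cell and endothelial genes in the B2m result was not tested one by one. B and T cell markers, taken as terms, left B2m at a log2 fold change of 0.46 ± 0.11 (SE; adjusted p = 0.0156).

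**Figure D2:**
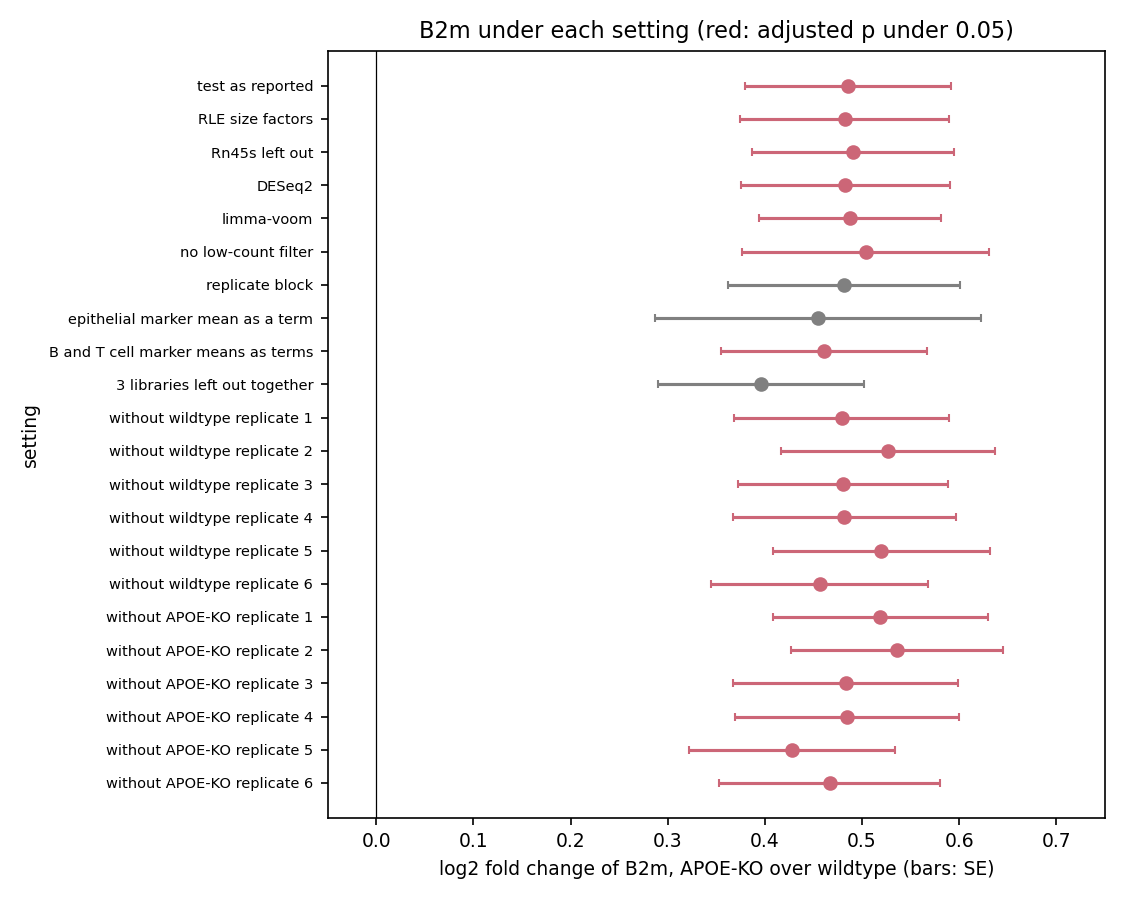
Log2 fold change of B2m, APOE-KO over wildtype, under each setting (x axis; points are fitted values, bars are SE, red where the adjusted p is under 0.05). All 22 fits lie above 0, and 3 of them miss the threshold: the replicate block, the epithelial marker mean as a term and the joint removal of 3 libraries.

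The heavy chains H2-K1 and H2-D1 encode the classical class I molecules of this strain and lie on chromosome 17, at 33996017 to 34000347 (minus strand) and 35262730 to 35267499 (plus strand). H2-K1 had 3014, 4089 and 4930 CPM in the lowest, median and highest wildtype library, and 3996, 4584 and 6361 CPM in APOE-KO. Of the APOE-KO libraries, 2 (5 and 6) lay above all wildtype libraries, and the rest fell within the wildtype range. This was a log2 fold change of 0.27 ± 0.12 (SE), a ratio of 1.20 with an interval of 1.01 to 1.44, and the adjusted p was 0.392. With 1 library left out at a time it stayed between 0.18 and 0.34. With the epithelial marker mean as a term it was 0.11 ± 0.20 (SE; adjusted p = 1).

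H2-D1 had 1489, 2009 and 2428 CPM in the lowest, median and highest wildtype library and 1982, 2275 and 2470 CPM in APOE-KO. The APOE-KO libraries lay closer together, with a coefficient of variation of 7.38% against 16.6% in wildtype, a difference that was not tested. The lowest and highest wildtype values were those of libraries 1 and 3, which stood apart in the principal components. The other wildtype libraries ran from 1691 to 2049 CPM, so the wider wildtype spread rests on those libraries. For H2-D1 the log2 fold change was 0.21 ± 0.11 (SE; ratio 1.16, interval 0.986 to 1.36; adjusted p = 0.465). Read for read within a library, there were 129 ± 27.8 H2-K1 reads per 100 B2m reads in wildtype against 109 ± 8.57 for APOE-KO (SD, 6 libraries each). For H2-D1 the same quantity was 61.9 ± 13.8 in wildtype and 51.1 ± 5.77 in APOE-KO. Both ratios overlapped between the genotypes, and neither was tested.

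The non-classical members could hardly be read. H2-T23 encodes Qa-1, which presents peptides from class I leader sequences to NK cell receptors. It had 0 to 20 reads per library, 49 over wildtype and 73 over APOE-KO. The gene stood at 2.49 ± 2.15 CPM in wildtype against 3.16 ± 1.73 CPM for APOE-KO (SD, 6 libraries each), with an interval of the ratio from 0.468 to 3.56 (adjusted p = 0.902). The log2 fold change was 0.37 ± 0.71 (SE), and -0.28 without the 3 libraries that stood apart. The interval of the ratio spans changes larger than that of B2m in both directions, so a difference of that size was not detectable at this depth. H2-Q7 encodes a Qa-2 chain and was listed at 0 in all 12 libraries, where 3 reads would stand for 0.525 to 1.59 CPM.

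Of 22 other class I and class I-like genes looked up, 8 were also listed at 0, among them H2-Q6, H2-Q8, H2-Q9 and H2-T22. In GENCODE M21, the 50-base stretches in the last 400 bases of coding transcripts were looked up in the transcripts of other genes. H2-K1 shared 10.2% of them, H2-D1 10.1%, H2-Q7 0.513% and B2m none. H2-Q6 shared 52.0%, with 30.8% found in H2-Q7, and H2-T22 shared 63.2% with H2-T10. The symbols H2-L, H2-Q8, H2-Q9 and H2-T9 of the count table are not in that annotation, so the authors counted on other gene models. Stretches shared with these genes could not be seen, so the low share of H2-Q7 does not show that its reads map to it alone. How they treated reads with several matches is not stated in the labels. What gave the zeros was not tested.

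The transporter subunits Tap1 and Tap2 lie near each other on chromosome 17, at 34187553 to 34197225 and 34203527 to 34216321. Tap1 had 202, 254 and 326 CPM in the lowest, median and highest wildtype library and 261, 281 and 327 CPM in APOE-KO. Every APOE-KO library lay above the wildtype median, but only library 5 lay above all wildtype libraries, and only just. For Tap1 the log2 fold change was 0.15 ± 0.13 (SE; ratio 1.11, interval 0.925 to 1.33; adjusted p = 0.712). It was 0.24 both without wildtype library 3 and without the 3 libraries that stood apart, and 0.089 without wildtype library 6, and passed in none of these. Tap1 overlaps the immunoproteasome gene Psmb9 on the other strand, not at the 3' end that these libraries read.

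Tap2 spread more between libraries than Tap1 in both genotypes. It had 59.5, 122 and 173 CPM in the lowest, median and highest wildtype library and 78.1, 126 and 174 CPM in APOE-KO, so the ranges nearly coincide. Its log2 fold change was 0.09 ± 0.22 (SE; ratio 1.07, interval 0.782 to 1.46; adjusted p = 0.921). Its sign turned to -0.03 without wildtype library 1 or APOE-KO library 6. With the epithelial marker mean as a term it was 0.33 (adjusted p = 1). No direction can be given for Tap2.

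Tapasin, encoded by Tapbp on chromosome 17 (33915899 to 33929292), bridges the transporter and the heavy chain. Tapbp had 300.2, 404 and 493 CPM in the lowest, median and highest wildtype library and 450.3, 486 and 636 CPM in APOE-KO. All 6 APOE-KO libraries lay above the wildtype median, and libraries 5 and 6 lay above the whole wildtype range. For Tapbp the log2 fold change was 0.31 ± 0.13 (SE; ratio 1.24, interval 1.03 to 1.48), and the adjusted p of 0.313 missed the threshold. Zbtb22, which overlaps Tapbp on the same strand, held 1760 reads against 20451 for Tapbp.

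Tapbpl encodes TAPBPR, a tapasin relative that edits bound peptides away from the transporter, and lies on chromosome 6 (125223933 to 125231860). It was the 1 tested member with a fitted value below 0, at 38.2 ± 6.26 CPM in wildtype against 36.1 ± 13.2 CPM for APOE-KO (SD, 6 libraries each). Among the APOE-KO libraries it ran from 20.4 CPM in library 5 to 56.4 CPM in library 4, on both sides of the wildtype range. The log2 fold change was -0.08 ± 0.22 (SE; ratio interval 0.691 to 1.29; adjusted p = 0.932), and it was 0.04 without APOE-KO library 5 and -0.04 without the 3 libraries that stood apart. With the epithelial marker mean as a term it was 0.21 (adjusted p = 1), so no direction can be given. Vamp1, which overlaps its end on the other strand, held 416 reads against 1686 for Tapbpl.

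Nlrc5, on chromosome 8 (94434356 to 94527272), encodes the transactivator of class I genes. It had 29.2, 44.1 and 55.0 CPM in the lowest, median and highest wildtype library and 46.3, 54.5 and 72.6 CPM in APOE-KO. Each APOE-KO library lay above the wildtype median, and 3 lay above all wildtype libraries. The log2 fold change was 0.43 ± 0.17 (SE; ratio 1.35, interval 1.05 to 1.72), close to that of B2m, but it did not pass (edgeR adjusted p = 0.290). Nlrc5 had 55 to 250 reads per library. With 1 library left out it stayed between 0.35 and 0.52 and never passed.

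**Figure D3:**
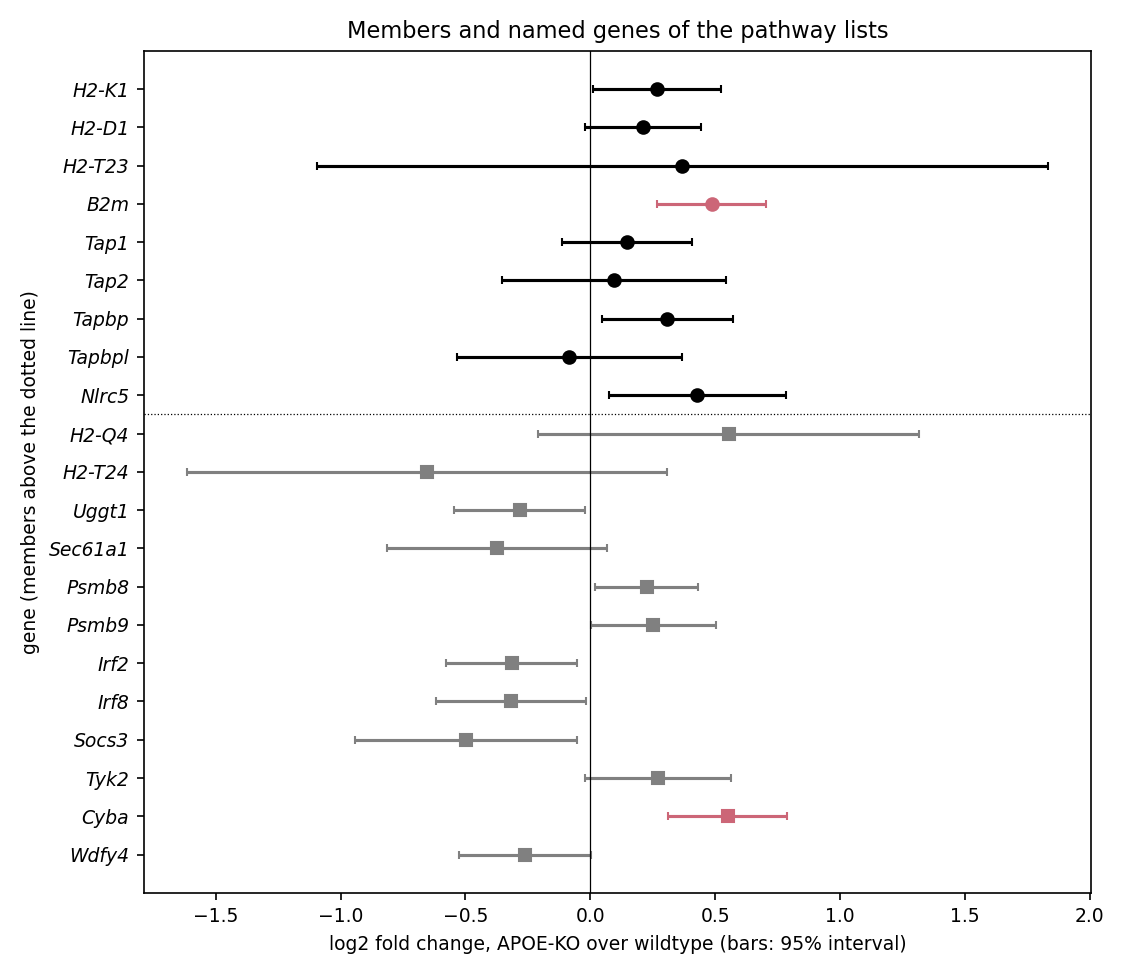
Log2 fold change, APOE-KO over wildtype, with its 95% interval (x axis) for the 9 tested members (circles) and the 12 named genes of the 6 pathway lists (squares); red marks an adjusted p under 0.05. B2m and Cyba are the genes called, and before adjustment over all genes the intervals of H2-K1, Tapbp, Nlrc5, Psmb8 and Psmb9 also lie above 0 and those of Uggt1, Irf2, Irf8 and Socs3 below 0.

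The rest of the pathway was read from 6 lists holding 77 genes in all, of which 63 were tested. In edgeR's test 1 of the 63 rose, none fell, and 62 did not pass (9 had an unadjusted p under 0.05; DESeq2 and limma-voom also called 1). Over all genes tested 1.49% were called and 12.1% had an unadjusted p under 0.05, so neither count sets the lists apart. The gene that rose was Cyba, a subunit of the phagocyte NADPH oxidase, from the cross-presentation list. It had 301 to 400.5 CPM in wildtype against 464 to 568 CPM in APOE-KO, with no overlap (log2 fold change 0.55 ± 0.12 SE, 1.46-fold, adjusted p = 0.0114). With the epithelial marker mean as a term Cyba stood at 0.50 ± 0.18 (SE) and did not pass (adjusted p = 0.576). The same list's Wdfy4, needed for cross-presentation in dendritic cells, had 488 ± 93.5 CPM in wildtype against 407 ± 37.9 CPM for APOE-KO (SD, 6 libraries each; adjusted p = 0.417).

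Genes that supply peptides in the cytosol had a median log2 fold change of 0.16, with 7 of 10 tested genes above 0 and none called in edgeR, DESeq2 or limma-voom (2 had an unadjusted p under 0.05 in edgeR). Psmb8, an immunoproteasome subunit, had 472 to 537 CPM in wildtype against 566 to 618 CPM in APOE-KO. Its groups did not overlap, yet the log2 fold change of 0.23 ± 0.10 (SE) had an adjusted p of 0.358. Psmb9, another such subunit and the neighbour of Tap1, had 284 ± 33.5 CPM in wildtype against 338 ± 41.1 CPM for APOE-KO (SD, 6 libraries each; adjusted p = 0.408).

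Chaperones and trimming enzymes of the endoplasmic reticulum centred on no difference, with a median log2 fold change of -0.015 over 11 genes and none called by the 3 tools (1 with an unadjusted p under 0.05 in edgeR). Uggt1, the folding sensor that returns glycoproteins to calnexin and calreticulin, averaged 223 CPM in wildtype against 183 CPM in APOE-KO (log2 fold change -0.28 ± 0.13 SE; adjusted p = 0.363). Sec61a1, a channel subunit of the same compartment, had 107 to 327 CPM in wildtype against 109 to 134 CPM in APOE-KO (adjusted p = 0.511). The highest of these values was in wildtype library 3, which stood apart in the principal components. Calr, Canx, Pdia3 and Erap1, which act with tapasin or trim peptides, had log2 fold changes of -0.11, -0.058, 0.098 and -0.013.

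Genes that control class I transcription had a median log2 fold change of 0.009 over 16 genes, none called by the 3 tools (4 with an unadjusted p under 0.05 in edgeR). Irf8, a factor of dendritic cell development, had 2063 ± 536 CPM in wildtype against 1653 ± 301.3 CPM for APOE-KO (SD, 6 libraries each; adjusted p = 0.376). Irf2, an interferon regulatory factor, had 199.8 ± 23.9 CPM in wildtype against 161 ± 20.3 CPM for APOE-KO (SD, 6 libraries each; adjusted p = 0.303). Ciita, the class II counterpart of Nlrc5, had a log2 fold change of -0.35 (adjusted p = 0.395), of opposite sign to Nlrc5. Irf1 and Rfx5 stood at log2 fold changes of -0.052 and 0.10.

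Interferon receptors and kinases gave 4 genes above 0 and 5 below, none of the 9 called by the 3 tools (1 with an unadjusted p under 0.05 in edgeR). Socs3, a feedback inhibitor of cytokine receptors, had 59.7 ± 22.7 CPM in wildtype against 42.5 ± 12.5 CPM for APOE-KO (SD, 6 libraries each; adjusted p = 0.344). Its highest wildtype value, 104 CPM, was in library 3, which stood apart in the principal components. Tyk2, a kinase of the type I interferon receptor, had 124 ± 14.7 CPM in wildtype against 150.1 ± 29.8 CPM for APOE-KO (SD, 6 libraries each; adjusted p = 0.453).

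Other class I and class I-like genes showed no common direction, with 3 of 9 tested genes above 0 and a median of -0.073. None was called by the 3 tools (none with an unadjusted p under 0.05 in edgeR). GENCODE M21 lists the tested H2-K2 as a pseudogene and H2-Q5 and H2-T10 as polymorphic pseudogenes. Their log2 fold changes were -0.05, -0.48 and -0.14. H2-Q4 had 159 reads over wildtype and 249 over APOE-KO (log2 fold change 0.55 ± 0.37 SE, adjusted p = 0.603). H2-T24 had 351 and 266 reads (log2 fold change -0.65 ± 0.47 SE, adjusted p = 0.630). H2-M3, which presents N-formylated peptides, had 1393 and 1553 reads and a log2 fold change of 0.14 (adjusted p = 0.793).

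Member pairs differed in how they moved from library to library. After the genotype mean was taken from each log2 CPM, 21 of 36 member pairs correlated positively over the 12 libraries and 15 negatively, with a median Pearson r of 0.202. All of these values share each library's depth and scaling, and they are given as descriptions. Tap1 and Tapbp were the most alike, at r = 0.841, and H2-D1 and Tap2 followed at 0.753 and H2-K1 and Tap1 at 0.709. Nlrc5 ran opposite to Tapbp (r = -0.793) and to Tap1 (r = -0.721). In the 9 libraries without wildtype 1 and 3 and APOE-KO 5, 27 pairs were positive and 9 negative, with a median r of 0.235, and each of the 9 involved Nlrc5 or H2-T23. Tap1 and Tapbp then stood at 0.851, H2-D1 and Tap2 at 0.481 and H2-K1 and Tap1 at 0.466. Nlrc5 with Tapbp then stood at -0.452 and with Tap1 at -0.580. Among the APOE-KO libraries, library 5 held the highest value of 5 members (H2-K1, H2-T23, B2m, Tap1 and Tapbp) and the lowest of Tapbpl and Nlrc5.

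**Figure D4:**
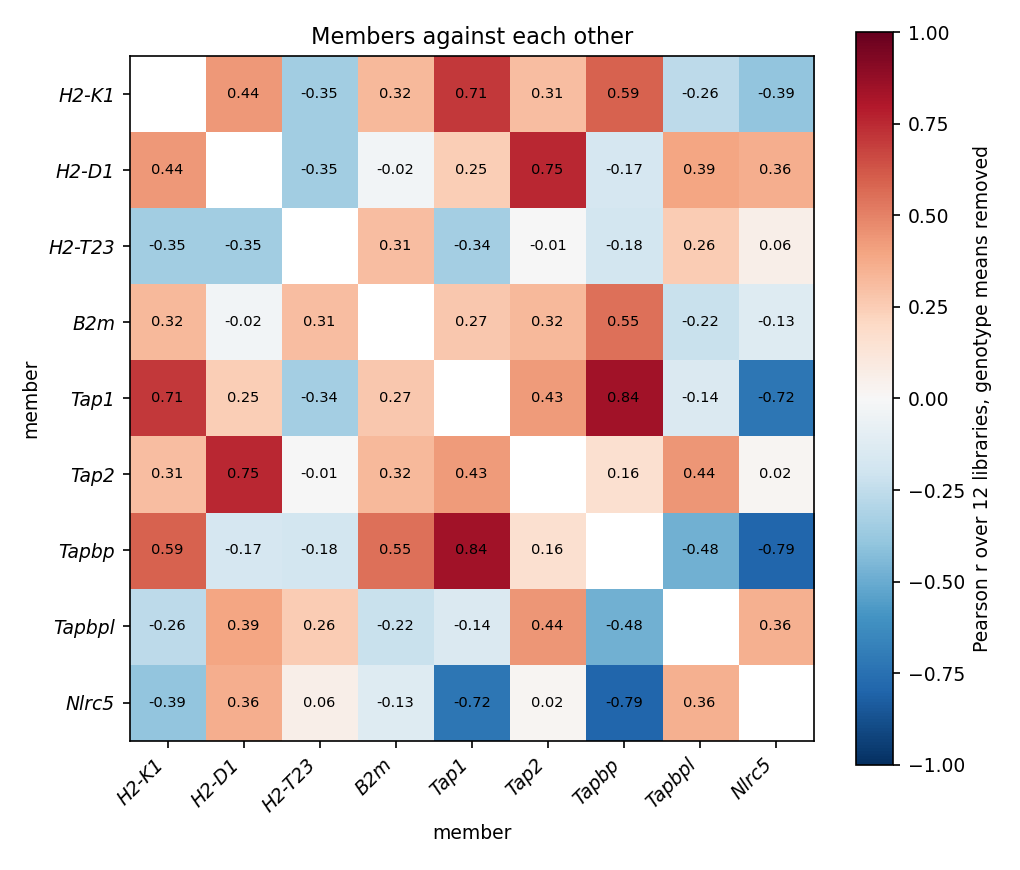
Pearson correlation of log2 CPM between each pair of tested members (both axes) over 12 libraries after removal of the genotype means; the colour scale runs from -1 (blue) to 1 (red). Tap1 and Tapbp rise and fall together at 0.841, and Nlrc5 lies opposite to both.

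Of 9410 other genes averaging 5 CPM or more (names starting with Gm and a number, or holding Rik, left out), the 5 whose log2 CPM was most like that of B2m over the 12 libraries were Gngt2, Sqstm1, Aldoa, Il18 and Pyhin1. Their Pearson r ran from 0.919 to 0.938, and Gngt2, Sqstm1 and Aldoa were themselves called higher in APOE-KO. With the genotype means removed, the 5 were Rftn1, Akap1, Src, Ano6 and Isyna1, with r from 0.868 to 0.877. For Nlrc5 the 5 over the 12 libraries were Psma1, a proteasome subunit, and Ift22, Snapin, Rad54l and Ghitm (0.871 to 0.911). With the genotype means removed they were Spc25, Gmps, Rpl5, Card10 and Ift22 (0.862 to 0.934). Each of these is the top of 9410 comparisons over 12 values.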

How the data were processed

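The authors deposited whole-number read counts per gene symbol for 12 libraries, which per the labels' protocols came from a Lexogen 3' FWD kit. The submitters' processing notes name STAR 2.7.8a, featureCounts 1.5.1, R 4.1.0, DESeq2 1.4 and build mm10. The annotation, strand setting and treatment of reads with several matches are not stated in these sources. No column was left unused.

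Tests were run in edgeR 4.0.16 under R 4.3.3 (filterByExpr, minimum count 10 and total 15; TMM scaling; glmQLFit and glmQLFTest on genotype over all 12 libraries; Benjamini-Hochberg over 10714 genes, threshold 0.05). CPM uses scaled library sizes, and log2 CPM for correlations a prior count of 2. Each SE was taken as the absolute log2 fold change divided by the root of F. Counts near the 3' end do not grow with transcript length. The floor of 3 counts covers counting error only. The script of the test was tested on simulated data with known changes. DESeq2 1.42.0, limma-voom 3.58.1, other scalings and filters, added terms and left-out libraries were alternatives.

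Members and lists were chosen with earlier results of these data known. Named genes are the 10 members, the genes of 6 pathway lists that passed, the 2 with the smallest p in each list, and the 5 most like B2m and Nlrc5. Ciita, Irf1, Rfx5, Calr, Canx, Pdia3, Erap1, H2-M3 and the class I genes listed at 0 were added once their values had been seen. Positions come from GENCODE M21 on GRCm38, the assembly of mm10, where all 10 members matched by symbol. Every pair of libraries within a group differed by more than sampling noise.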

Additional observations from a re-analysis of the deposited data

Results flagged for a closer look

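Tapbp in APOE-KO library 5 stood at 636 CPM, while the other 5 APOE-KO libraries held 450.3 to 506 CPM. The gap to the nearest library was 0.700 of the group's range, above the 95% critical value of Dixon's test for 6 samples. This was 1 of 18 member groups examined, and chance flags about 1 in 20. Without that library the log2 fold change of Tapbp was 0.23, and it passed the test neither with it nor without it. The same library also held the highest level of H2-K1, H2-T23, B2m and Tap1 among the APOE-KO libraries.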

How the results depend on the processing

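B2m kept its direction in all 21 alternatives. It missed the threshold in 3, at log2 fold changes of 0.48 with a replicate block (adjusted p = 0.0741), 0.45 with the epithelial term and 0.40 without 3 libraries, against 0.49. Its adjusted p elsewhere ran from 0.000999 in DESeq2 to 0.0476. These 3 settings each called 0 members in edgeR (3, 2 and 5 at an unadjusted p under 0.05). Same-numbered libraries did not deviate together (correlations -0.077 to 0.018, and 0 of 6 wildtype libraries correlated best with their own number), so the numbers are not used as pairs. Of the pathway genes, 0 passed with the replicate block and 0 with the epithelial term in edgeR (2 at an unadjusted p under 0.05 in each), and 2 with B and T cell terms (Cyba and Socs3). Cyba stood at 0.56 with the replicate block (adjusted p = 0.0565). Over all genes, 160 were called (116 higher, 44 lower), 273 in DESeq2 (182 and 91), 100 with the replicate block (70 higher), 32 with the epithelial term (24 and 8), and 68 lower without a low-count filter. With 1 library left out, 99 to 230 were called, 72 to 166 higher and 27 to 64 lower. The count fell to 99 without APOE-KO library 3, and lower calls to 27 without wildtype library 5 or APOE-KO library 3 and 29 without APOE-KO library 6. Signs reversed for H2-T23 (-0.28 without 3 libraries), Tapbpl (0.21 with the epithelial term, -0.25 to 0.039 with 1 library left out) and Tap2 (-0.035 to 0.27 with 1 left out). H2-T23 rests on at most 20 reads per library, and H2-Q7 gave no value. The cause of these changes was not tested.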
